A study of Mus musculus with 6 samples.

Results

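CpG-dense DNA that nevertheless carries methylation was examined in splenic naive B cells of C57BL/6 mice, in 3 libraries with the genotype TET2 Knock-Out (KO) and 3 with the genotype TET2 Wild-Type (WT). The genome was divided into tiles of 1 kb, and a tile was kept when 30 or more of its CpG cytosines were measured in all 6 libraries and its methylation level, the mean of 6 libraries, was 30% or more. Of 171352 tiles with at least 1 such cytosine, 11523 were CpG-dense by this count, and 316 of these, or 2.74%, were methylated. The tiles were thus chosen by their measured level and number of cytosines, so levels are given below as a description without a test, while the comparison of KO with WT was not used in the choice. The cells were resting mature B cells taken from spleens, and the assay was enhanced reduced representation bisulfite sequencing (ERRBS), in which unmethylated cytosines are read as T, whereas C stands for 5-methylcytosine or 5-hydroxymethylcytosine alike. The labels give neither age, sex, the design of the Tet2 allele, any Cre driver, nor whether each library is a separate mouse, so the p-values rest on the spread of these 6 libraries alone, which may be technical. The series' design text speaks of germinal centre cells, whereas its title and all 6 sample labels say naive B cells, and the labels were followed.

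Between 1551481 and 1626375 CpG cytosines per library had 10 or more reads, at a median coverage of 92 to 106 reads in the KO libraries and 99 to 110 reads in the WT libraries, and 1457048 cytosines were shared by all 6. In Tet2 itself, 6 cytosines on chromosome 3 from 133486189 to 133486297 reached 10 reads in 0 KO libraries, while each WT library had between 28 and 71 reads on them, and 0 cytosines showed the opposite. In and within 1 kb of the B cell genes Cd79a and Cd79b, the signalling chains of the B cell receptor, measured cytosines stood at 3.20% and 1.47%. The 6 B cell markers with measured cytosines ranged from 1.47 to 91.7%, 5 T cell markers from 31.9 to 93.0% and 4 myeloid markers from 84.9 to 96.1%, and methylation is not expression. Over the 316 tiles, Pearson's r of the levels in any pair of libraries was 0.982 to 0.992, a description across tiles, which are not independent replicates. In a sample of many cells, methylation of one parental copy, of both copies in some of the cells, and a change in the mixture of cells cannot be told apart, since the tables give cytosines and not single DNA molecules.

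Clusters of CpG dinucleotides, the CpG islands, cover the start sites of most housekeeping and many developmental genes and are usually kept free of methylation. Known exceptions are imprinting control regions, where one parental copy is methylated and the other is not, promoters of genes of the germ line, which are methylated and silent in body cells, and islands inside gene bodies or at gene ends. TET2, an enzyme often mutated in human blood cancers, oxidises 5-methylcytosine and thereby opens a route to demethylation.

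The sequences below show what such DNA looks like at gene starts, and were chosen as starts of imprinted, retrotransposed and germline genes at both ends of the range. Each is the stretch of 250 bases before a gene's start site, from RefSeq (GRCm38.p6), written 5′ to 3′ along the gene, with CpG dinucleotides in capitals. The first 4 lie in tiles near 30 to 55% and the last pair in tiles above 90%.
Igf2r, minus strand of chr17:12769707-12769956: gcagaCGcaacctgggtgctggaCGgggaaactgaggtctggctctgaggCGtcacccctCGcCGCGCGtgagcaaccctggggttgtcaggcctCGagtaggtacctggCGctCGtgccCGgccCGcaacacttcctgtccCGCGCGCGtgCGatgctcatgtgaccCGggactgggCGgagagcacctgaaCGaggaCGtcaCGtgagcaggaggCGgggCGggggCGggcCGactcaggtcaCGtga
Plagl1, plus strand of chr10:13090582-13090831: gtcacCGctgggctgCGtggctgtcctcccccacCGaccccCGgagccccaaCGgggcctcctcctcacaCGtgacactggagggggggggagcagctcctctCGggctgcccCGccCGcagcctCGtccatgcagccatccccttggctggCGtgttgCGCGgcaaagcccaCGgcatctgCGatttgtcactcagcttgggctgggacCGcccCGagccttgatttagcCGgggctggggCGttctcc
Gnas, plus strand of chr2:174284070-174284319: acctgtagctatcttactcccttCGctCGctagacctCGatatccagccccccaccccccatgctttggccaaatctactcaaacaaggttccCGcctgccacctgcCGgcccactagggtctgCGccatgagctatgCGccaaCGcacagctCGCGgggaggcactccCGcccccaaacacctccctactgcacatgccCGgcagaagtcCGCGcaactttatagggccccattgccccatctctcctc
Rbmxl2, plus strand of chr7:107209195-107209444: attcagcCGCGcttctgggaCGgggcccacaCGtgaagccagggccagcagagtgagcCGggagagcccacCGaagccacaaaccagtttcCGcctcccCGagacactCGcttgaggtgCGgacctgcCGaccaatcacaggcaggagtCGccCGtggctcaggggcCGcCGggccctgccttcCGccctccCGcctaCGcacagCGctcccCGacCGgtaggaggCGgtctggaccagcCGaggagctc
Ddx4, minus strand of chr13:112652311-112652560: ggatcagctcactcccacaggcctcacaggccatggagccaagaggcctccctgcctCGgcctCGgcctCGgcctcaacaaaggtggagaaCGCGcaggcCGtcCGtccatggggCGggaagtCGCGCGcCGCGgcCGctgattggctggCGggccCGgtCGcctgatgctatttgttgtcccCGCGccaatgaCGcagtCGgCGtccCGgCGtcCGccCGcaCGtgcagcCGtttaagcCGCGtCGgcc
Hormad1, plus strand of chr3:95559427-95559676: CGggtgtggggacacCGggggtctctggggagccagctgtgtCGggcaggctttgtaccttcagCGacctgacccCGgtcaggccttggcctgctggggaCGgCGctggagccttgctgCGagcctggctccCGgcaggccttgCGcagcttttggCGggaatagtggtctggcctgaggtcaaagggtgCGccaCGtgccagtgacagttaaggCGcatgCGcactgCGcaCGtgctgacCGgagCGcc

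Within these windows the measured cytosines stood as follows. The Igf2r window had 27 CpG dinucleotides and 26 measured cytosines, at 31.9% in KO and 32.8% in WT. That of Plagl1 had 19 and 9, at 30.2% in KO and 35.8% in WT. That of Gnas had 14 and 10, at 35.9% in KO and 29.9% in WT. The CpG content of these partly methylated windows overlapped that of the methylated germline pair: the Ddx4 window had 31 CpG dinucleotides and 40 measured cytosines, at 93.8% in KO and 93.7% in WT, and that of Hormad1 had 19 and 25, at 93.7% in KO and 93.1% in WT. Rbmxl2 lay between them, with 23 CpG dinucleotides and 19 measured cytosines, at 48.0% in KO and 48.4% in WT.

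In all, 50 such windows lay before gene starts in member tiles, with a median of 19 CpG dinucleotides and a median observed to expected CpG ratio of 0.739. The 7512 windows in CpG-dense tiles below 30% had a median of 22 and a ratio of 0.833, and all 32851 windows a median of 6 and a ratio of 0.373. The letters CACGTG, which read the same on both strands and are the core motif of E-box factors, occurred in 22% of the members' windows, in 8.97% of those in dense tiles below 30% and in 6.02% of all windows. In the printed sequences they appear as caCGtg, for example in the Igf2r, Ddx4 and Hormad1 windows. The letters TGCCGC, searched also as GCGGCA, are the core of the site of ZFP57, a zinc finger protein that maintains imprints. They occurred in 20% of the members' windows, in 19.4% of those in dense tiles below 30% and in 8.68% of all windows, and overlaps between both motifs were not removed. The windows of fully methylated tiles numbered 9, including an overlapping pair for Hormad1, and 44.4% of them held CACGTG and 0% TGCCGC. Some windows of half-methylated tiles also overlap, such as those of Plagl1 and Hymai, which each held both motifs. In the 32 windows of half-methylated tiles the shares were 15.6% and 25%, and in the 9 windows at 70 to under 90% they were 22.2% each. These are counts of letters and not of bound factors. Windows were assigned by the gene start and can lie partly outside the tile, as that of Zrsr1 does. The windows of Taco1 and Taco1os, counted with half-methylated tiles, stood at 0.264% and 0.0753% in KO and at 0.0463% and 0.168% in WT.

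The 316 tiles held 13872 measured cytosines, from 30 to 141 per tile with a median of 38, and fell into 113 half-methylated tiles (30 to under 70%), 58 tiles at 70 to under 90%, and 145 fully methylated tiles (90% or more). Within a tile, the SD of the cytosines' levels had a median of 18.5 percentage points in half-methylated tiles, 11.2 points at 70 to under 90% and 3.20 points in fully methylated tiles. A level can vary little when it is near its ceiling, so these values describe the tiles and are not tested. Where both strands of a CpG were measured, their levels differed by a median of 5.19, 3.84 and 2.28 points in the 3 classes, in the same order.

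A level near the middle took more than one form. In 56 of the 113 half-methylated tiles, or 49.6%, at least 80% of the cytosines themselves stood between 20 and 80%, here called even. In 5 tiles at most 20% of them did, here called split, and the other 52 were mixed. The label takes no account of where the cytosines lie. In the split tiles of Arhgef40, Dazl and Map3k6 and near Tank, cytosines at 20% or less and at 80% or more lay in separate stretches. Map3k6, a stress-activated kinase, shows the split pattern at 32.0% ± 2.26 in KO and 32.4% ± 0.152 in WT (SD, n = 3 each). There, 17 of 32 cytosines were at 20% or less and 10 at 80% or more. Zfp703, a zinc finger cofactor classed as mixed, had 27 of 77 cytosines at 20% or less, all 25 to 278 bases from the start of the tile, and 30 at 80% or more, 290 to 950 bases from it.

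**Figure D1:**
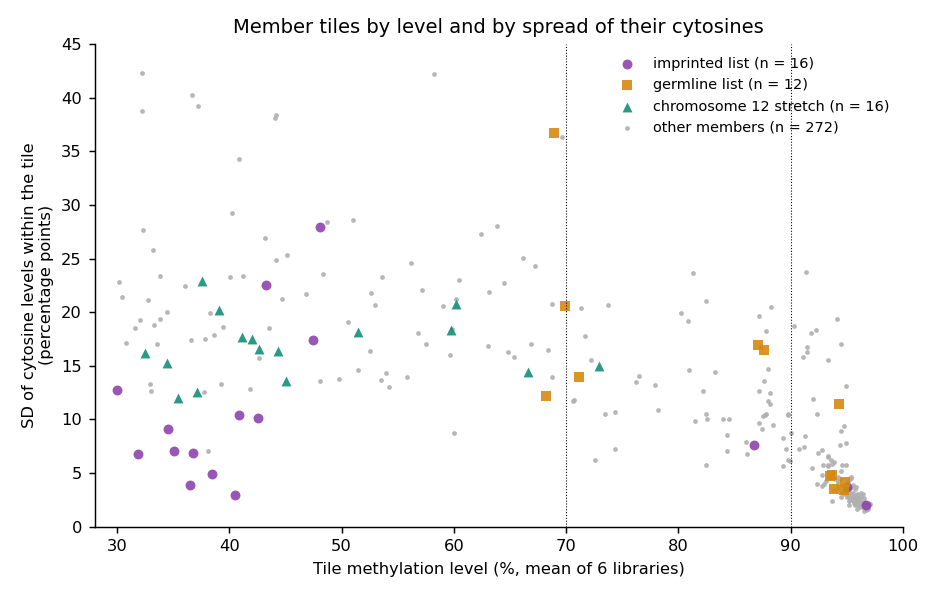
Each point is 1 of the 316 tiles, placed by its methylation level (%, mean of 6 libraries, x axis) and by the SD of its cytosines' levels (percentage points, y axis), with dotted lines at 70 and 90%. Tiles of the imprinted list sit mostly below 50% with a small spread, those of the germline list at 68.2% or more, and the 16 tiles of a stretch of chromosome 12 between 32.5 and 72.9%.

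**Figure D2:**
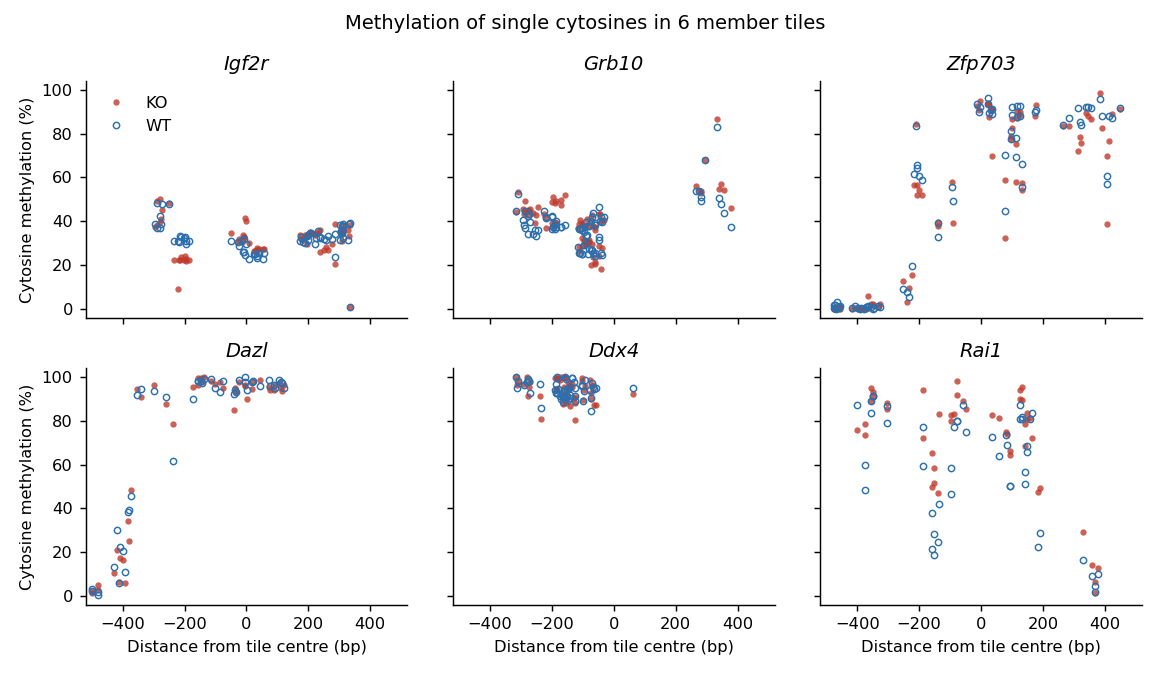
Methylation of single cytosines (%, y axis) by distance from the tile centre (bp, x axis) in 6 tiles, as the mean of 3 KO libraries (filled red) and of 3 WT libraries (open blue). Most cytosines of Igf2r and Grb10 lie between 20 and 80%, with 1 of Igf2r at 1.01% over the 6 libraries and 1 of Grb10 at 85.0%, Zfp703 and Dazl cross from low to high, Ddx4 stays high, and in Rai1 many KO points lie above the WT points.

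Imprinted genes, whose parental copies carry opposite marks, held 10 of the 56 even tiles. Of 60 dense tiles that overlap a gene of the imprinted list, 16 were methylated, or 26.7%, beside 2.74% of all dense tiles. Of these 16 tiles, 13 were half-methylated, 1 was at 70 to under 90% and 2 were fully methylated. The 13 half-methylated tiles averaged 38.9% ± 1.13 in KO and 38.9% ± 0.626 in WT (SD, n = 3 each), 0.0330 points apart.

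The start of Igf2r, the receptor that clears insulin-like growth factor 2, overlaps the antisense RNA Airn, which silences it on the paternal copy. Its tile, chromosome 17 from 12769001 to 12770000 with 69 cytosines, stood at 32.7%, 29.5% and 31.2% in KO 1, KO 2 and KO 3, against 33.4%, 31.5% and 32.7% in WT 1, WT 2 and WT 3. The genotypes overlapped, and the cytosines had an SD of 6.81 points over the tile, with 1 of them at 1.01%. Plagl1, a zinc finger growth regulator that shares its start with the imprinted RNA Hymai, stood at 31.2%, 41.9% and 43.3% in the KO libraries, against 39.3%, 38.0% and 37.3% in the WT libraries. KO 1 was thus the lowest and the other KO libraries the highest of the 6.

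Gnas encodes the stimulatory G protein alpha subunit and has several imprinted starts. All 4 of its dense tiles between 174284001 and 174329000 on chromosome 2 were even, at 34.5 to 40.9%. The next dense tile, which begins 1 base further, stood at 0.152%, so that the level changed from one tile to the next. The tile with the smallest spread of all half-methylated tiles was one of these, starting at 174300001, whose 39 cytosines ranged from 35.7 to 48.7% with an SD of 3.0 points. It stood at 42.3%, 38.9% and 42.6% in the KO libraries, against 41.7%, 40.8% and 36.6% in the WT libraries.

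Grb10, an adaptor that restrains insulin receptor signalling, had 76 cytosines in the tile starting at 12026001 on chromosome 11, at 46.0%, 48.1% and 37.9% in the KO libraries, against 41.7%, 41.2% and 40.4% in the WT libraries. KO 3 was the lowest and the other KO libraries the highest. Zrsr1, a splicing factor gene inside an intron of Commd1 and expressed from the paternal copy, stood at 36.8% over the 6 libraries. Begain, a synaptic scaffold gene, was half-methylated in a tile at 47.5% and stood at 86.7% in the adjacent one. Magel2 and Mkrn3, paternally expressed genes of the Prader-Willi region, stood at 43.2% and 48.0%. These last tiles were mixed, with single cytosines from 13.1 to 94.3% in Magel2 and from 1.27 to 94.8% in Mkrn3.

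Cdkn1c, a cell cycle inhibitor expressed from the maternal copy, had adjacent tiles at 30.03% and 35.1%. The tile at 30.03%, starting at 143459001 on chromosome 7, lay just inside the limit of the selection. It stood at 22.3%, 29.3% and 28.8% in the KO libraries, against 32.9%, 33.0% and 33.9% in the WT libraries, so all KO libraries were below all WT libraries. The difference of -5.85 points was not called (adjusted p = 0.132 by the quasi-binomial model described below). With equal weights per cytosine the difference of library means was -6.08 points, beside -6.44 points with cytosines weighted by reads. The equally weighted difference passed the adjusted threshold (adjusted p = 0.0266, same model) but not the minimum of 10 points that a call required. H13, a signal peptide peptidase, and Zfp787 were the fully methylated members of the list, at 95.03% and 96.7%. Dense tiles of the list outside the selection included Peg12, at 23.6 and 27.5%, Igf2 at 1.67 and 2.83%, Dlk1 at 2.78% and Kcnq1 at 4.18%.

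Genes of the germ line formed the second group. Of 25 dense tiles that overlap a gene of the germline list, 12 were methylated, or 48.0%. Of these, 3 were half-methylated, 3 were at 70 to under 90% and 6 were fully methylated, and 10 of the 12 held a gene start. The fully methylated ones were Ddx4, the RNA helicase also known as Vasa, Hormad1, a protein of the meiotic chromosome axis, Hsf5, a heat shock factor family member, Sohlh2, a transcription factor of early germ cells, and Dmrtb1 and Rhox13, transcription factors of the testis. Over these 6 tiles the level averaged 94.1% ± 0.250 in KO and 94.3% ± 0.140 in WT (SD, n = 3 each). Rbmxl2, Rbm46 and Papolb, genes of germ cells or testis described below at lower levels, were not on this list.

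Ddx4 stood at 92.9%, 94.0% and 93.8% in the KO libraries, against 93.5%, 94.2% and 94.8% in the WT libraries, and each of its 52 cytosines was at 83.3% or more. Mael, a factor of the piRNA pathway, stood at 87.8%, 89.1% and 85.3% in the KO libraries, against 89.1%, 88.1% and 86.5% in the WT libraries. In both tiles the genotypes overlapped. Sycp3, a component of the synaptonemal complex, averaged 87.5% ± 1.75 in KO and 86.8% ± 1.54 in WT.

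Dazl, an RNA-binding protein needed by germ cells, shows a sharp edge. Its tile, starting at 50293001 on chromosome 17 with 46 cytosines, stood at 68.2%, 70.1% and 69.0% in the KO libraries, against 67.8%, 69.7% and 68.7% in the WT libraries. The 9 cytosines at 20% or less lay 0 to 107 bases from the start of the tile, and the 32 at 80% or more lay 147 to 620 bases from it. The tile before it stood at 0.884% and the tile after it at 92.6%. Boll, a relative of Dazl, likewise stood at 71.2% beside a dense tile at 8.08%. Meioc, a regulator of meiotic entry, stood at 68.2% and was even, and Taf7l, a variant of a general transcription factor, at 69.9%. Germline genes with dense tiles outside the selection included Tdrd7 at 0.166%, Tex15 at 1.83%, Tdrd5 at 2.95%, Prdm14 at 5.10% and Tdrd6 at 12.2 and 26.2%.

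**Figure D3:**
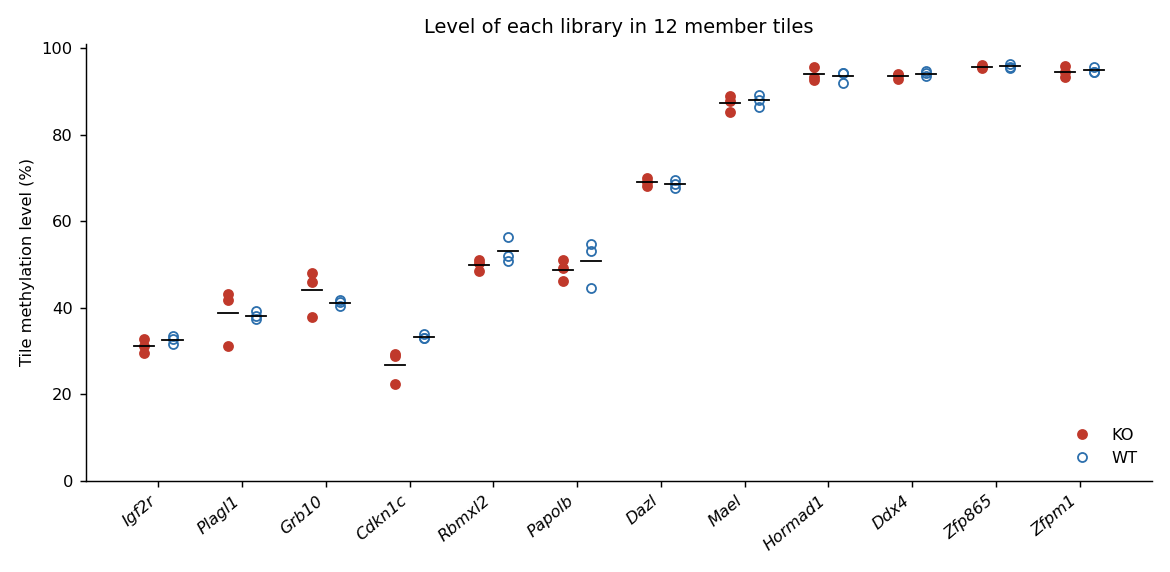
Methylation level (%) of each library in 12 tiles, named by gene along the x axis, with 3 KO libraries (filled red, left) beside 3 WT libraries (open blue, right) and black bars at the means. The tiles run from imprinted genes at 22.3 to 48.1% to fully methylated tiles above 90%, and only in Cdkn1c do all KO points lie on one side of all WT points.

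Even tiles at the middle of the range were not confined to the imprinted list. The tile with the most cytosines of all, 141, lay at the end of Rbmxl2, a retrogene that encodes an RNA-binding protein of male germ cells. It stood at 50.3%, 51.0% and 48.6% in the KO libraries, against 50.7%, 56.4% and 51.9% in the WT libraries, and the adjacent tile with the gene's start was at 52.6%. Papolb, the testis poly(A) polymerase, also a retrogene, stood at 48.8% ± 2.42 in KO and 50.8% ± 5.40 in WT. Rbm46, an RNA-binding protein of germ cells, stood at 32.9% over 98 cytosines and at 33.1% over 30 in adjacent tiles. Crb2, a cell polarity protein, stood at 53.5% over 76 cytosines. Dchs1, an atypical cadherin of planar cell polarity, had the seventh smallest cytosine SD among half-methylated tiles, 7.08 points, after 6 tiles of imprinted genes. Dchs1 stood at 38.4%, 40.7% and 43.3% in the KO libraries, against 38.2%, 34.0% and 33.9% in the WT libraries, with all KO libraries above all WT libraries. Its difference of 5.56 points was not called (adjusted p = 0.0992, quasi-binomial model).

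A stretch of chromosome 12 from 18 to 24 Mb, chosen after its values were seen, held 15 of the 113 half-methylated tiles. Of its 30 dense tiles, 16 were members, with 12 even and none fully methylated, at levels from 32.5 to 72.9% and a median of 42.3%. The 136 sparser tiles of the same stretch, with 3 to 29 cytosines, had a median of 91.9%. The dense tiles lay at the starts of Zfp996, a zinc finger gene, and of 5730507C01Rik, and mostly at predicted genes without a known role. The windows before the starts of Gm3973, Gm9257, Gm40881 and Gm38699 share long runs of the same bases. These tiles may thus not be separate in sequence, and whether reads were assigned to the right tile was not tested. 5730507C01Rik, with 84 cytosines, stood at 29.9%, 32.6% and 31.5% in the KO libraries, against 32.0%, 34.4% and 34.4% in the WT libraries, a difference of -2.22 points that was not called (adjusted p = 0.605, quasi-binomial model). Over the 16 tiles the differences ran from -2.22 to 3.88 points. Mean coverage in these tiles was 94.5 to 173 reads per cytosine, beside a median of 119 over all half-methylated tiles.

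Genes of the B lineage had 23 dense tiles, and 21 of these stood at 1.26% or less. The others were in Pax5, the transcription factor that keeps B cell identity, and in Tnfrsf13b, a receptor of BAFF and APRIL. The Pax5 tile, inside the gene on chromosome 4 from 44664001 with 93 cytosines, stood at 33.9%, 33.0% and 33.8% in the KO libraries, against 27.4%, 32.7% and 31.3% in the WT libraries. All KO libraries were above all WT libraries, WT 1 lay lowest, and the difference of 3.26 points was not called (adjusted p = 0.486, quasi-binomial model). Tnfrsf13b averaged 81.8% ± 3.05 in KO and 82.6% ± 1.52 in WT.

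In further groups, 0 of 22 dense tiles of genes of DNA methylation and its readers, 0 of 12 collagen tiles, 0 of 3 olfactory and vomeronasal receptor tiles, 0 of 3 ribosomal RNA tiles and 0 of 2 clustered protocadherin tiles were members, and mucin genes had 0 dense tiles. Zinc finger genes had 21 of 272, of which 15 were fully methylated. Members were also 2 of 43 Hox tiles, 5 of 334 tiles of developmental transcription factors, 5 of 117 ion channel tiles and 2 of 32 tiles of cadherin, Fat and Celsr genes. Fully methylated tiles with the most cytosines lay inside Zfpm1, a cofactor of GATA factors (124 cytosines), Asmt, the last enzyme of melatonin synthesis (103), Hcn2, a pacemaker channel (89), and Shroom3, which shapes epithelial cells through actin (89). Zfpm1 stood at 93.5%, 95.9% and 94.5% in the KO libraries, against 95.7%, 94.6% and 94.4% in the WT libraries, with overlapping genotypes.

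Tiles were also placed by RefSeq gene spans and start sites, without the 3 members on chromosome 18, for which no start site table was used. Of the other 313 members, 42 held a gene start (13.4%), 30 a gene end (9.58%), 225 lay inside a gene (71.9%) and 16 outside genes (5.11%). Of 10879 dense tiles below 30%, 54.5% held a gene start, 12.6% a gene end, 29.1% lay inside a gene and 3.73% outside genes. Of the tiles placed, gene starts were in 26 of 111 half-methylated ones, in 8 of 58 at 70 to under 90% and in 8 of 144 fully methylated ones. Exons, introns and UTRs were not annotated here.

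A measured adjacent tile was available for 82 half-methylated tiles, and for 19 of them, or 23.2%, at least 1 was under 10%, while for 22, or 26.8%, all were at 70% or more. Of 99 fully methylated tiles with a measured neighbour, 2 had one under 10% and 91, or 91.9%, had all at 70% or more. The median neighbour stood at 48.0% for half-methylated and at 95.5% for fully methylated tiles.

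By chromosome, members were 5.38% of dense tiles on chromosome 7, 4.99% on chromosome 12 and 4.88% on chromosome 10, against 0.580% on chromosome 16. Chromosome X, which carries one methylated copy of many islands in female cells, had 7 members among 212 dense tiles, of which 1 was half-methylated. Its dense tiles averaged 4.07% in KO and 4.05% in WT. Both dense tiles of chromosome Y were fully methylated, at 95.1% in KO and 95.1% in WT.

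Levels of KO and WT were close in this DNA. Over the 316 tiles the mean level was 75.8%, 75.8% and 75.4% in KO 1, KO 2 and KO 3, against 74.9%, 75.5% and 75.3% in WT 1, WT 2 and WT 3. The mean difference was 0.438 points, beside 0.642 points over all 108802 tiles tested, and the genotypes overlapped. Half-methylated tiles averaged 47.2% ± 0.627 in KO and 46.6% ± 0.471 in WT, 0.603 points higher in KO. Tiles at 70 to under 90% averaged 82.9% ± 0.281 in KO and 82.4% ± 0.760 in WT, 0.466 points higher in KO, and fully methylated tiles 94.9% ± 0.153 in KO and 94.6% ± 0.0207 in WT, 0.299 points higher in KO (SD, n = 3 each). Among half-methylated tiles, the mean difference was 0.0117 points in 56 even tiles, 1.32 points in 52 mixed tiles, which include the called tiles of Rai1 and Mn1, and -0.190 points in 5 split tiles. Their median differences were close to each other, at 0.435, 0.472 and 0.481 points in the same order. No p is given for these means, since the tiles were chosen with results of these data known.

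Each tile was tested with a quasi-binomial model over all 108802 tiles, with p-values adjusted by the Benjamini-Hochberg method, and a call required an adjusted p under 0.05 together with at least 10 points of difference. Of the 316 tiles, 3 were called higher in KO and 0 lower, beside 0.112% of all tested tiles called higher and 0% called lower. Without the minimum of 10 points, 4 members were higher at an adjusted p under 0.05 and 0 lower, beside 0.13% and 0% of all tested tiles. By the unadjusted p, under 0.05 in 60 members, 42 were higher in KO (13.3%) and 18 lower (5.70%). Of all tested tiles, 5.74% were higher and 1.46% lower. Half-methylated members held 19 of the higher and 15 of the lower ones, or 16.8% and 13.3% of the 113. The moderation used the same prior at all depths and levels, and whether this changed the shares was not tested. The 3 KO libraries were all above the 3 WT libraries in 34 members (10.8%) and all below them in 10 (3.16%). The shares of all tested tiles were 8.35% and 3.36%. Together 44 members, or 13.9%, separated the genotypes, beside 11.7% of all tested tiles. As signs alone, 187 members were higher in KO and 129 lower, with a median difference of 0.314 points, beside 0.176 points over all tested tiles. By the same unadjusted limit, 2 of the 16 imprinted tiles were higher and 2 lower, and of the 12 germline tiles 0 were higher and 1 was lower. None of these was called.

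**Figure D4:**
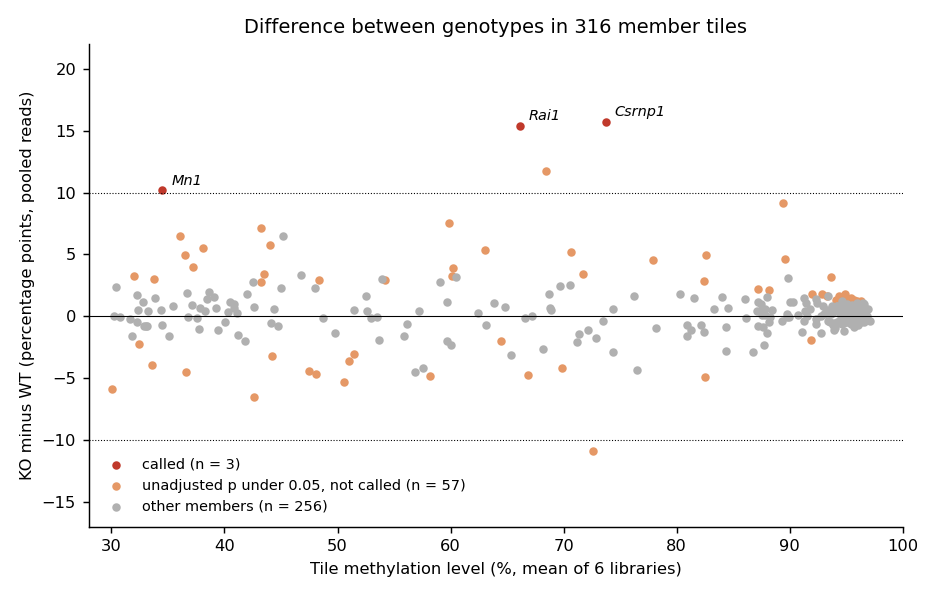
Difference between genotypes (KO minus WT, percentage points of pooled reads, y axis) against methylation level (%, mean of 6 libraries, x axis) for the 316 tiles, with dotted lines at 10 points either way. The called tiles in Mn1, Rai1 and Csrnp1 (dark red) stand at 10.2, 15.4 and 15.7 points, and fully methylated tiles stay close to 0.

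All 3 called tiles lie inside genes. Rai1 encodes a chromatin-binding regulator whose loss causes Smith-Magenis syndrome in humans. Its tile on chromosome 11 from 60189001 to 60190000, with 47 cytosines, stood at 74.5%, 71.4% and 75.3% in the KO libraries, against 53.8%, 59.3% and 62.6% in the WT libraries. The genotypes were separated by a wide gap, and the pooled difference was 15.4 points (adjusted p = 0.00575, quasi-binomial model). The adjacent tile before it, fully methylated at 93.4%, is also a member and was not called.

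Csrnp1, a nuclear protein of the AXUD1 family, rose by 15.7 points in a tile on chromosome 9 from 119973001 to 119974000 with 33 cytosines (adjusted p = 0.0108, quasi-binomial model). It stood at 85.7%, 81.2% and 78.5% in the KO libraries, against 59.0%, 71.3% and 66.7% in the WT libraries, with WT 1 the lowest and no overlap. Mn1, a transcriptional cofactor rearranged in human leukaemia, rose by 10.2 points in a tile on chromosome 5 from 111420001 to 111421000 with 71 cytosines (adjusted p = 0.0320, quasi-binomial model). It stood at 42.1%, 42.4% and 34.1% in the KO libraries, against 25.9%, 31.5% and 31.0% in the WT libraries. The smallest distance between the genotypes was there the one between KO 3 and WT 2, and the call was lost when KO 1, KO 2, WT 1 or WT 3 was left out (adjusted p = 0.127, 0.183, 0.132 and 0.0527). The adjacent Mn1 tile stood at 73.7% ± 2.32 in KO and 63.1% ± 8.66 in WT (SD, n = 3 each), a difference of 11.8 points that was not called (adjusted p = 0.169, quasi-binomial model). It was 5.75 points without WT 1 (adjusted p = 0.166) and 14.2 points without WT 2 (adjusted p = 0.0494).

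The tile of Adat3, a subunit of a tRNA deaminase, and Scamp4, a membrane trafficking protein, passed the adjusted threshold but not the minimum difference. It stood at 94.3%, 94.4% and 92.9% in the KO libraries, against 81.5%, 88.0% and 85.1% in the WT libraries, a difference of 9.16 points (adjusted p = 0.00821, quasi-binomial model, and 0.903 without moderation of the overdispersion). The largest negative differences were not called. Map1b, a microtubule-associated protein, stood at 56.2%, 71.2% and 74.2% in the KO libraries, against 78.3%, 80.8% and 74.9% in the WT libraries, with KO 1 far below the rest (-10.9 points, adjusted p = 0.356, quasi-binomial model). Without KO 1 the difference was -5.44 points, and without KO 3 it was -14.6 points (adjusted p = 0.578 and 0.0969). Esr1, the oestrogen receptor alpha, averaged 39.5% ± 2.36 in KO and 45.8% ± 2.12 in WT (-6.50 points, adjusted p = 0.164), and the difference was -4.19 points over cytosines with 20 or more reads. Espnl, an actin-bundling protein, and Magi1, a junctional scaffold, differed by -5.32 and -4.89 points (adjusted p = 0.558 and 0.665 by the same model). With equal weights per cytosine the difference of library means in Espnl was -3.12 points, beside -5.59 points weighted by reads. The pooled difference in Magi1 was -8.00 points without WT 1 (adjusted p = 0.0304) and -2.65 points without WT 3 (adjusted p = 0.927, same model). Without moderation of the overdispersion across tiles, the calls of Rai1, Csrnp1 and Mn1 were all lost (adjusted p = 0.903 each, quasi-binomial model). Over all alternatives tried the adjusted p ranged from 0.00137 to 0.903 for Rai1, from 0.00216 to 0.903 for Csrnp1 and from 0.00328 to 0.903 for Mn1. Tested alone with a two-sided exact permutation test over the 6 libraries, each of the 3 called tiles gave p = 0.1, the smallest that 3 against 3 libraries allow, as did Map1b, Esr1 and Cdkn1c.

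Sparser tiles within the same class limits gave the following values beside the members. Half-methylated tiles with 3 to 29 cytosines, 8963 in number, averaged 54.6%, 54.3% and 53.6% in the KO libraries, against 50.6%, 52.4% and 52.6% in the WT libraries, a difference of 2.33 points without overlap. The 113 dense half-methylated tiles averaged 47.8%, 47.3% and 46.5% in the KO libraries, against 46.1%, 47.0% and 46.7% in the WT libraries, so that KO 3 lay below WT 2 and WT 3. In fully methylated tiles the genotypes did not overlap in either set. The 145 members averaged 94.77%, 95.08% and 94.96% in the KO libraries, against 94.66%, 94.63% and 94.62% in the WT libraries, 0.299 points apart. The 53038 sparser tiles differed by 0.328 points, with all KO libraries likewise above all WT libraries. The 11207 dense tiles below 30% averaged 1.52% ± 0.0622 in KO and 1.43% ± 0.0233 in WT. The contrast between dense and sparse tiles was not tested, and the sets were not matched. Dense and sparse refer to cytosines measured in all 6 libraries, with each strand counted, and not to CpG dinucleotides in the sequence. Sparse half-methylated tiles had a median level of 54.1% and a median coverage of 84.6 reads, against 44.1% and 119 reads in dense ones.

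**Figure D5:**
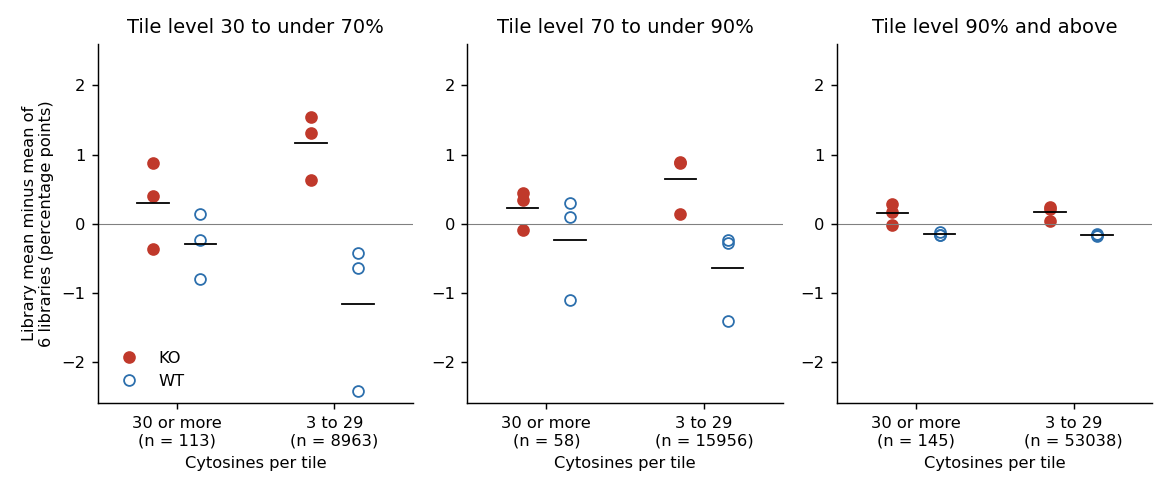
Mean level of each library minus the mean of all 6 libraries (percentage points, y axis) for tiles with 30 or more and with 3 to 29 cytosines (x axis), in 3 panels by tile level, with KO filled red on the left, WT open blue on the right and black bars at the group means. In the panel of 30 to under 70%, KO and WT lie 2.33 points apart in sparse tiles and 0.603 points apart in dense tiles, which were not matched in level or coverage.

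The tiles closest to the limits of the selection show how they were drawn. Just inside the level limit were Cdkn1c at 30.03%, Fam171a2 at 30.2% and Ltbp3 at 30.4%, and just outside it lay tiles at 29.8%, 28.9% and 28.8%, at the predicted genes Gm36876, Gm10479 and Gm5953. With exactly 30 cytosines there were 28 members, and 43 tiles at 30% or more had 29 cytosines and were left out.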

How the data were processed

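ERRBS of 3 KO and 3 WT libraries was processed by the authors with Bismark on GRCm38, per the submitters' processing notes (version not stated). The deposited tables hold a raw read count per CpG cytosine and strand (coverage, 10 or more) and the percent of reads with C and with T, per the file headers. Counts of C and T were recovered as coverage times percent, summed per 1 kb tile over cytosines present in all 6 libraries, and fitted for 108802 tiles with 3 or more cytosines, while 141 tiles at 0 or 100% in all libraries could not be fitted. The quasi-binomial model estimated the overdispersion per tile (4 residual degrees of freedom) and moderated it as limma 3.58.1 does (checked against limma and tested on simulated data). Moderation added 12.1 prior degrees of freedom, estimated over all tiles. The overdispersion was held at 1 or above, and genotypes were compared by an F test with Benjamini-Hochberg adjustment. Python 3.11.15, numpy 2.4.6, pandas 2.3.3 and scipy 1.17.1 were used.

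Median coverage was 92 to 110 reads per cytosine, and PCR reads are not independent molecules, so the error was taken from the spread between libraries. Genes came from RefSeq (GRCm38.p6, 49943 genes), and no genome sequence was used. The labels do not say whether replicate numbers pair the libraries. Deviations of same-numbered KO and WT libraries correlated at 0.0279, -0.0175 and -0.0105. Such low correlations cannot show whether libraries were prepared together. The tiles and gene lists were chosen with earlier results of these data known. Named tiles were those called, the 5 largest and 5 smallest differences, the even, split and full tiles with most cytosines, up to 4 per list and class, and those at the limits, and any other tile was named once its values had been seen. The alternatives were the replicate block, no moderation, equal weights per cytosine, other limits for tiles and classes, and each library left out.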

Additional observations from a re-analysis of the deposited data

How the results depend on the processing

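Under every setting run, 0 members were called lower in KO, and the mean differences over all members, over half-methylated and over fully methylated tiles stayed positive. The count of members called higher in KO, 3 of 316 as reported, was 0 without moderation of the overdispersion (by the unadjusted p, under 0.05, 17 were higher and 3 lower). It was 5 of 1064 members with 20 or more cytosines, and between 2 and 5 of 316 when a library was left out. Over all tested tiles, 122 were called higher as reported, 0 without moderation and 50 to 118 when a library was left out. Without WT 2 the count in members was 5, with the tile of Adat3 and Scamp4 (10.8 points) and the adjacent Mn1 tile (14.2 points) added. With the replicate number as a block the count in members was also 0, with 33 higher and 10 lower by the unadjusted p. Of all tested tiles 0 were called with the block, and whether the numbers pair the libraries is not known. The share of half-methylated tiles that were even, 49.6%, was 30.1% when cytosines had to stand between 25 and 75%, and between 46.0 and 53.1% without a library. The difference over half-methylated tiles, 0.603 points, was 0.154 points when they were bounded at 40 to 60% and 0.317 to 0.938 points without a library. Over all members it was 0.275 to 0.582 points and over fully methylated tiles 0.229 to 0.380 points without a library. Mn1 also lost its call with equal weights per cytosine (8.71 points as a difference of library means, beside 10.1 points weighted by reads). The cause of these changes was not tested. Median depth was 92 to 110 reads per cytosine, and 3 libraries per genotype limit what can be called. The calls rest on 4 residual degrees of freedom per tile and 12.1 prior ones taken from all tiles.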

Other observations

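Fully methylated tiles contained a few cytosines with a low measured level, the cause of which was not tested. Of 6112 cytosines in the 145 fully methylated tiles, 17 in 14 tiles stood at 20% or less. For 13 of them the cytosine on the opposite strand of the same CpG was measured, and for 12 of these it stood at 80% or more. In Shroom3 such a cytosine stood at 1.87% with 95.4% on the opposite strand, in Zfpm1 at 5.13% with 97.9%, and in Bend3, which encodes a heterochromatin protein, at 1.62% with 98.1%.

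Coverage was far above the rest in 6 members, beside a median of 106 reads per cytosine over all 316. Cdk8, a kinase of the Mediator complex, had a mean of 7565 reads per cytosine at a level of 32.3%, Sfi1, a centrosome protein, 3721 reads at 88.3%, and Taco1, a mitochondrial translation factor, 1378 reads at 30.8%. In the Taco1 tile, which holds the gene's start, 38 of 50 cytosines stood at 20% or less and the median cytosine at 0.157%, so that the level of the pooled reads does not describe most of its cytosines. Both tiles of chromosome Y had 412 and 339.8 reads, and the tile of Tmem267 had 308 reads at 56.2%. None of the 6 was called, and their differences lay between -0.608 and 0.478 points.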
